A study of Mus musculus with 24 samples.

Results

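The genes examined make and use nicotinamide adenine dinucleotide (NAD) in skeletal muscle. They were chosen by name, as the rows whose symbol is Nmrk1, Nmrk2, Nampt, Nmnat1, Nmnat3, Nadsyn1, Naprt, Nnmt, Cd38 or Parp1, and all 10 were found among the 25369 genes listed. This rule uses no measured value, although the genes were proposed with earlier results of these data known. Left quadriceps of 25-week-old mice with the Lama2-CMD genotype, which models a congenital muscular dystrophy, was compared with that of wild-type (WT) mice on 4 backgrounds, with 3 libraries in each of the 8 groups. The backgrounds were B6 (C57BL/6J), 67 and 87 (BXD-67 and BXD-87 in the study's design text, which are recombinant inbred strains derived from B6 and D2) and D2 (DBA/2J). The CMD and WT mice of each background were otherwise given no treatment in the labels, and no allele other than Lama2 is named. The labels do not say how the Lama2 allele changes the transcript, nor whether WT mice were littermates of the CMD mice. Libraries are named here by their group and their number from 1 to 24 in the labels.

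NAD is a cofactor of oxidation and reduction that some enzymes also break down. Muscle cells rebuild most of it by salvage. Nampt converts nicotinamide, and the kinases Nmrk1 and Nmrk2 convert nicotinamide riboside, to nicotinamide mononucleotide, which the Nmnat enzymes turn into NAD. Naprt starts the route from nicotinic acid, and Nadsyn1 completes it. Parp1 and Cd38 break NAD down, Parp1 while attaching ADP-ribose to proteins at damaged DNA and Cd38 while hydrolysing NAD at membranes. Nnmt methylates nicotinamide and so removes it from salvage. Nmrk2 is known as the muscle form of the riboside kinase.

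Total exon reads ran from 32292613 to 51715975 per library, and 97.7% to 98.2% of them were unique. All 10 genes passed the filter on low counts, with 19 reads at the lowest (Nnmt) and 12101 at the highest (Nmrk2) in a library. Levels are given as CPM (reads scaled to a common library total) on TMM-adjusted library sizes. The 8 muscle fibre markers summed to 106635 to 181448 CPM in CMD libraries and 175616 to 242958 CPM in WT libraries, and within each strain all CMD libraries lay below all WT libraries. Lama2 itself averaged 21.2 CPM in CMD and 42.6 CPM in WT of B6, and 16.3 CPM in CMD and 30.2 CPM in WT of 87. It fell in both (adjusted p = 0.00642 and 0.00939). In 67 it averaged 27.8 CPM in CMD and 26.9 CPM in WT (adjusted p = 0.912), and in D2 27.0 CPM in CMD and 35.0 CPM in WT (adjusted p = 0.244). The Y-linked reads matched the sex labels of 20 libraries and went against those of 4 D2 libraries. CMD libraries 22 and 24, labelled female, held 4927 and 4858 such reads, and WT libraries 19 and 21, labelled male, held 1 and 0. By these reads 1 of 3 D2 CMD and 3 of 3 D2 WT mice were female. In 67, 3 of 3 CMD and 2 of 3 WT mice were female by label and by reads. Among the other strains 1 of 3 CMD and 2 of 3 WT mice were female in B6, and the same in 87. Libraries 16 (87 CMD) and 23 (D2 CMD) stood apart from the others of their groups in earlier results of these data, so the called effects in 87 and D2 are also given without them.

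Per exon length, the muscle kinase Nmrk2 was the highest of the 10 genes, with a mean of 124 TPM (the deposited level per exon length) over the 24 libraries. The group means of Nmrk2 ran from 43.6 TPM in B6 WT to 212 TPM in D2 CMD, and in B6 WT it was below Nampt (49.3 TPM) and Parp1 (44.8 TPM). Over the 24 libraries Nampt followed at 52.3 TPM and Parp1 at 35.6 TPM. Nmnat1 averaged 13.6 TPM, Nmnat3 10.8 TPM, Nnmt 6.81 TPM and Naprt 5.02 TPM. Cd38 at 3.14 TPM, Nmrk1 at 2.78 TPM and Nadsyn1 at 2.05 TPM were the lowest. Naprt and Nadsyn1 of the nicotinic acid route were both in the lower part of this order.

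**Figure D1:**
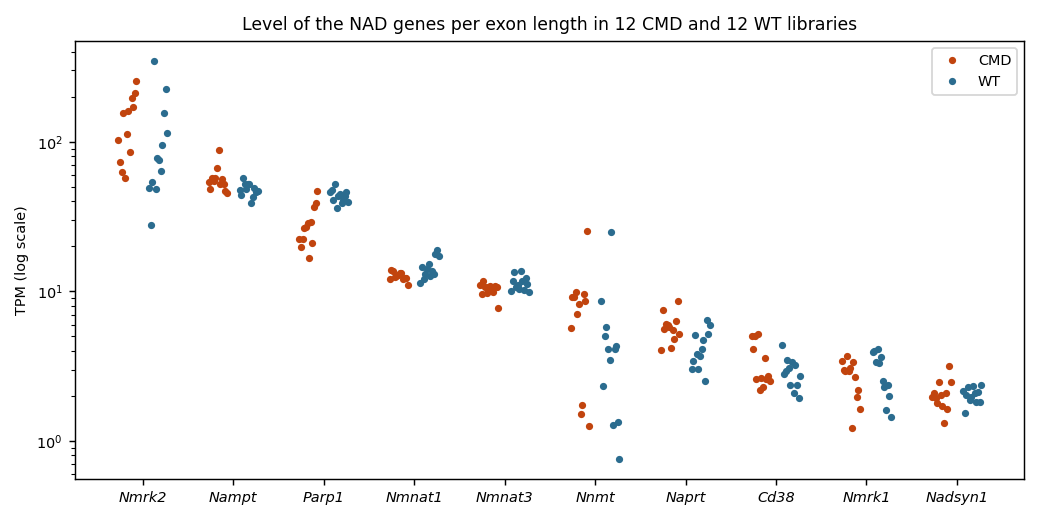
TPM of each gene on a log axis, 1 point per library, with 12 CMD libraries left of 12 WT libraries for each gene and genes ordered by their mean. Nmrk2 has the highest mean over the 24 libraries, 124 TPM, and Nadsyn1 the lowest, 2.05 TPM.

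The CMD effect was tested within each strain by edgeR's quasi-likelihood test with Benjamini-Hochberg adjustment over all 14789 genes tested, and a gene was called at an adjusted p below 0.05. In B6, 2 of the 10 genes were called against 18.4% of all genes tested, with Naprt higher and Parp1 lower. In 67, 1 of 10 was called, Parp1 lower, against 21.7% of all genes. In 87, 2 of 10 were called against 20.8% of all genes, with Nampt higher and Parp1 lower. In D2, 2 of 10 were called against 20.2% of all genes, and these were Nmnat1 and Nmnat3, both lower. The shares of the 10 genes called were near or below those of all genes. Of all genes, 8.07% were called higher and 10.4% lower in B6, 11.4% and 10.3% in 67, 11.5% and 9.38% in 87, and 11.2% and 9.03% in D2. The median log2 fold change of the 10 was 0.25 in B6, -0.15 in 67, 0.17 in 87 and -0.21 in D2, beside medians over all genes of 0.01, 0.00, 0.01 and 0.03 in the same order. Averaged over the 4 strains, 3 of 10 were called (Naprt higher, Nmnat1 and Parp1 lower), against 48.8% of all genes (25.4% higher and 23.4% lower). Nmnat1, at -0.20 ± 0.06 (adjusted p = 0.0122), was not called in this average on plain library sizes, with no TMM factor (-0.04, adjusted p = 0.536).

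**Figure D2:**
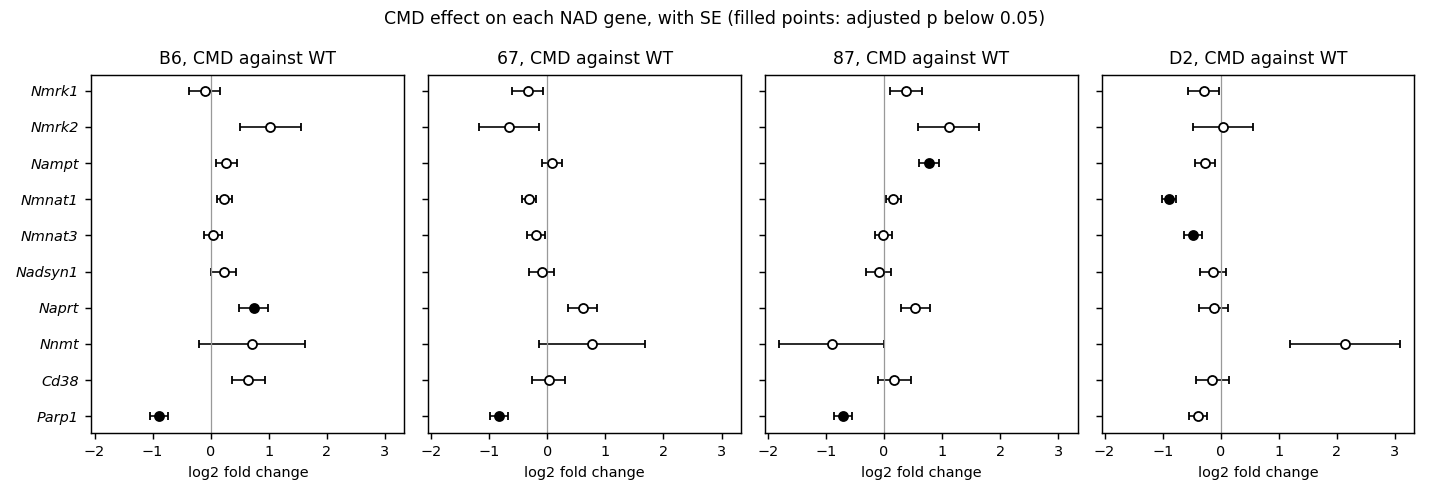
Log2 fold change of CMD against WT with its SE for each gene (rows), 1 panel per strain, filled where the adjusted p is below 0.05. Parp1 lies at -0.88, -0.83, -0.71 and -0.39 in B6, 67, 87 and D2, while Nmnat1 lies at -0.89 in D2 and at 0.24 in B6.

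Among the NAD consumers, Parp1 was lower in CMD muscle of B6, 67 and 87. The 250 bases upstream of its RefSeq start (GRCm38.p6, chr1:180568641-180568890, plus strand) are shown because Parp1 is the gene called in most strains. Those of Nmnat1 (chr4:149485211-149485460, minus strand) and Nmnat3 (chr9:98296320-98296569, plus strand) are shown because these are the genes called in D2. Those of Nmrk2 (chr10:81202038-81202287, minus strand), the muscle kinase that was not called in any strain, are shown for comparison. Each is written 5′ to 3′ on the gene's strand, and capitals mark GGGCGG on either strand (also read as CCGCCC) and the E-box CANNTG, with no overlap between the marked matches. For Parp1 alone of the 4, the bases that follow the RefSeq start were not found in a GENCODE transcript of the gene, so the place of its window relative to a transcript start is less certain.
Parp1: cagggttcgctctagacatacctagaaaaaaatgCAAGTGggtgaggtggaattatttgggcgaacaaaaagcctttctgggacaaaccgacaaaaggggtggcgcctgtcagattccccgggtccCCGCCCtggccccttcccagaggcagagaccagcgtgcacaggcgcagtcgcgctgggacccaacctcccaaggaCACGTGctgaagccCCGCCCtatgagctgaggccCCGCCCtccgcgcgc
Nmnat1: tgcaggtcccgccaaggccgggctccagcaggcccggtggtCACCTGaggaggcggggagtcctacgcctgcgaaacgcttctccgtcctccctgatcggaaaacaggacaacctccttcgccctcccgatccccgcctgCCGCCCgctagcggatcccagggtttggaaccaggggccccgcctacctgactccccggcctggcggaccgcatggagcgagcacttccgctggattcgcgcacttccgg
Nmnat3: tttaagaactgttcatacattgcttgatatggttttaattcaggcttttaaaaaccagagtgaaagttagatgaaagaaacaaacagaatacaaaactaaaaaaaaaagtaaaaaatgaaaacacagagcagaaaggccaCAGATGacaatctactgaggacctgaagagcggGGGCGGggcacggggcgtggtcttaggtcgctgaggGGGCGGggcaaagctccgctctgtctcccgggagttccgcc
Nmrk2: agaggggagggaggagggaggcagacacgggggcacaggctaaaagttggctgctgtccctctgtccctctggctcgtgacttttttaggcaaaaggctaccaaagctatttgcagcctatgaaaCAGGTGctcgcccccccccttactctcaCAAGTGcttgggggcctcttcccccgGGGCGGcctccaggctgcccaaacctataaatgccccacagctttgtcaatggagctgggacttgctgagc
GGGCGG was found 3 times upstream of Parp1, 1 time upstream of Nmnat1, 2 times upstream of Nmnat3 and 1 time upstream of Nmrk2, and it was present in 32.7% of the 32851 upstream windows of that length in the RefSeq table. CANNTG was found 2 times upstream of Parp1, 1 time each upstream of Nmnat1 and Nmnat3 and 2 times upstream of Nmrk2, and it was present in 66.2% of the windows. These are matches of letters only. RefSeq windows were matched for 8 of the 10 genes by symbol.

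In B6, Parp1 had 51.4, 43.0 and 47.9 CPM in the CMD libraries, against 94.7, 86.5 and 81.4 CPM in the WT libraries. The groups did not overlap, and Parp1 fell by 0.88 ± 0.16 on the log2 scale (SE, adjusted p = 0.00147). It was 1 of 3 genes of the 10 whose groups did not overlap in B6, where 41.3% of all genes did not, beside Nmrk2 and Nmnat1 with all CMD libraries above. In 67, Parp1 had 49.2, 52.1 and 54.1 CPM in CMD libraries, against 105, 78.1 and 92.6 CPM in WT libraries, again with no overlap. It fell by 0.83 ± 0.16 (adjusted p = 0.00129). In 87, Parp1 had 38.9, 66.7 and 48.2 CPM in CMD libraries, against 79.7, 86.9 and 85.8 CPM in WT libraries. No CMD library reached the lowest WT library, although library 17 (66.7 CPM) lay nearer to it than the others, and Parp1 fell by 0.71 ± 0.16 (adjusted p = 0.00349). Without library 16, the lowest, the log2 fold change was -0.56 (adjusted p = 0.0149), and without libraries 16 and 23 it was -0.54 (adjusted p = 0.015). With only the 6 libraries of 87 in the fit, the adjusted p was 0.124.

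In D2, Parp1 had 66.7, 55.6 and 69.7 CPM in CMD libraries, against 79.6, 92.4 and 79.3 CPM in WT libraries. The groups did not overlap, but the log2 fold change of -0.39 ± 0.16 was not called (adjusted p = 0.0811). With sex taken from Y-linked reads as a term it was -0.55 (adjusted p = 0.0161), and on plain library sizes it was -0.12 (adjusted p = 0.568). The test of whether the CMD effect on Parp1 differs among the strains did not pass (adjusted p = 0.356), so the smaller value in D2 is not shown to differ from the others. Averaged over the strains Parp1 fell by 0.70 ± 0.08 (adjusted p = 9.7e-07), and all 12 CMD libraries lay below all 12 WT libraries. The highest CMD library held 69.7 CPM and the lowest WT library 78.1 CPM. In the deposited TPM, which carry no TMM factor, Parp1 ran from 16.7 to 46.6 TPM in CMD libraries and from 36.1 to 52 TPM in WT libraries, which overlap. The group means of Parp1 stood in the order B6 CMD (47.4 CPM), 87 CMD (51.3 CPM), 67 CMD (51.8 CPM) and D2 CMD (64.0 CPM), followed by the 4 WT groups between 83.7 and 91.8 CPM. The ranges of the first 3 overlap, as do those of neighbouring WT groups, while D2 CMD overlaps neither neighbour in this order. The D2 CMD range (55.6 to 69.7 CPM) does overlap that of 87 CMD (38.9 to 66.7 CPM). The fibre marker sum lay lower in the same CMD libraries, and of its 8 genes 3 fell in B6, 6 fell and 1 rose in 67, 3 fell and 1 rose in 87, and 1 fell in D2. Its part in the Parp1 result was not tested, and in bulk muscle fewer cells of a type and less RNA per cell cannot be told apart.

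Over the 8 group means, the genes with a pattern most like Parp1 were Satb1 (Pearson r = 0.996), Tmcc1 (0.995), Xpo7 (0.991), Scn4a (0.990) and Rnf123 (0.988), among 10717 genes whose log2 CPM averaged 1 or more. Satb1 encodes a chromatin organiser and Scn4a the sodium channel of skeletal muscle fibres. The values share libraries and scaling and are a description.

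**Figure D3:**
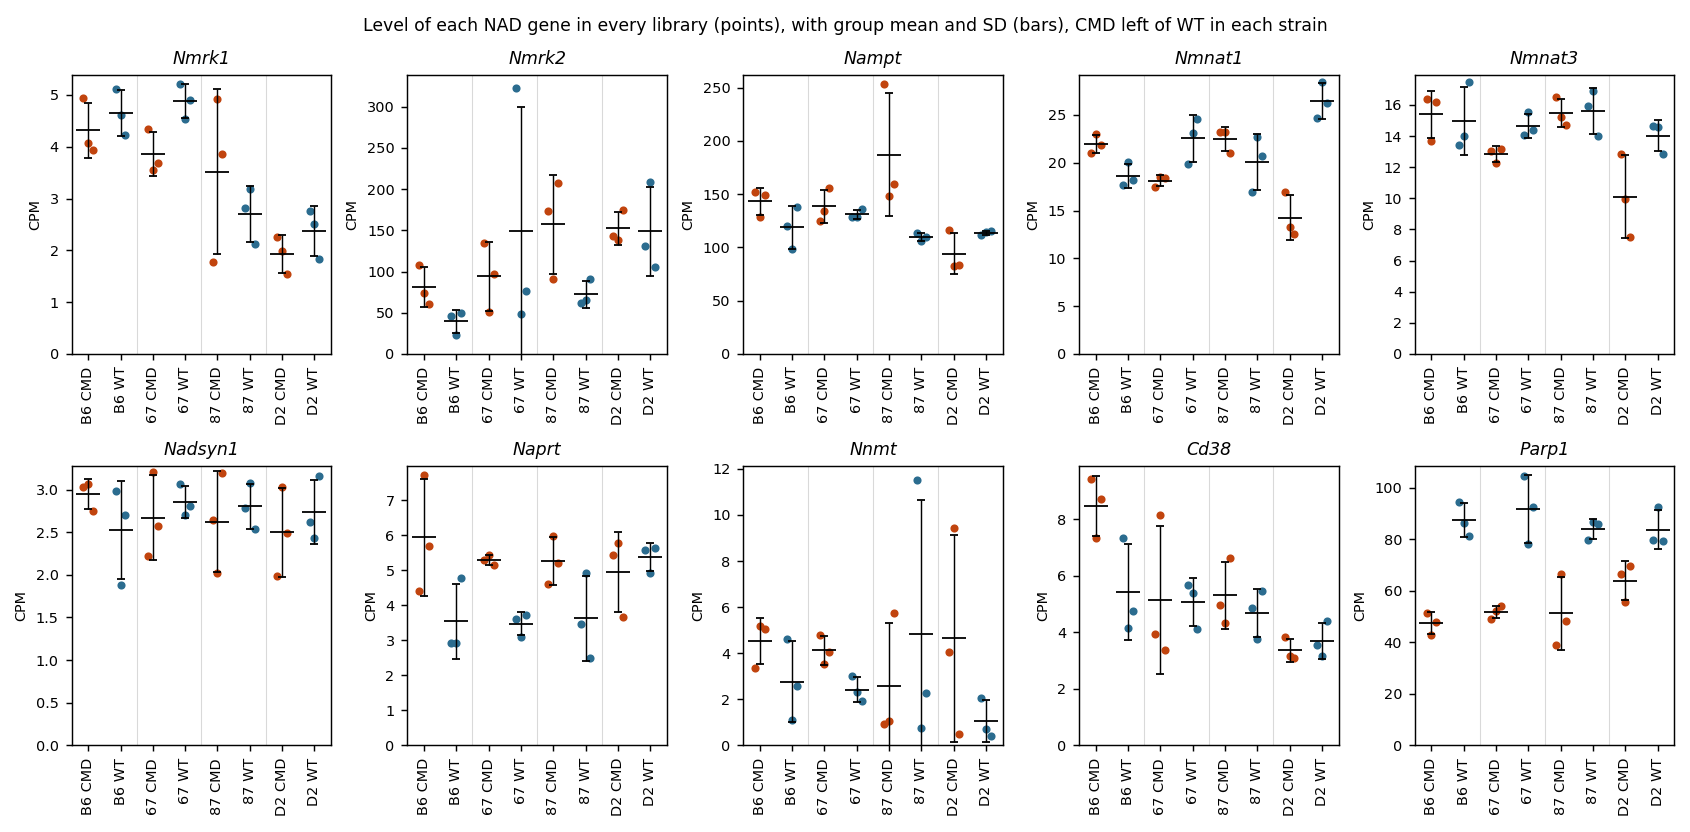
CPM of each of the 10 genes in every library (points) with the group mean and SD (bars, cut at 0), CMD left of WT within B6, 67, 87 and D2. The 12 Parp1 points of CMD muscle lie at or below 69.7 CPM and the 12 of WT muscle at or above 78.1 CPM, on this TMM scale, while Nmnat1 is lowest in D2 CMD (12.5 to 16.9 CPM) and highest in D2 WT (24.7 to 28.4 CPM).

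Cd38, the other NAD consumer, was called in no strain. In B6 it had 9.42, 7.33 and 8.70 CPM in CMD libraries, against 7.35, 4.16 and 4.75 CPM in WT libraries. The ranges touch at library 1 of WT and library 5 of CMD, and the log2 fold change was 0.65 ± 0.28 (adjusted p = 0.117). In 67 Cd38 averaged 5.15 ± 2.61 CPM in CMD and 5.07 ± 0.84 CPM in WT (SD, n = 3 each). In 87 it averaged 5.31 ± 1.19 CPM in CMD and 4.70 ± 0.85 CPM in WT, and in D2 3.36 ± 0.41 CPM in CMD and 3.70 ± 0.64 CPM in WT. D2 CMD libraries (3.82, 3.17 and 3.08 CPM) all lay below B6 CMD libraries. Among CMD groups Cd38 differed between strains (F test, adjusted p = 0.0116), and it was lower in D2 CMD than in B6 CMD by a log2 fold change of -1.34 ± 0.29 (adjusted p = 0.00281).

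Of the enzymes that form NAD from mononucleotide, Nmnat1, the nuclear form, fell in D2 and Nmnat3, described as a mitochondrial form, fell there too. In D2, Nmnat1 had 16.9, 13.3 and 12.5 CPM in CMD libraries, against 24.7, 28.4 and 26.2 CPM in WT libraries. The highest CMD library lay well below the lowest WT library, and Nmnat1 fell by 0.89 ± 0.13 on the log2 scale (adjusted p = 0.000194). With sex from Y-linked reads as a term the log2 fold change was -0.80 (adjusted p = 0.000808), without libraries 16 and 23 it was -0.86 (adjusted p = 0.000914), and on plain library sizes it was -0.63 (adjusted p = 0.000775). Without the 4 D2 libraries whose sex label is contradicted it was -1.12, which rests on 1 library per D2 group. These are library 20 of WT and library 23 of CMD, and library 23 is the one that stood apart from its group. Nmnat1, Nmnat3 and Parp1 were the 3 genes of the 10 whose D2 groups did not overlap, all with CMD below WT, where 42.9% of all genes did not overlap.

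Marker sums of several other cells were also higher in D2 CMD, and some of these were higher in CMD of other strains as well. The 6 markers of regenerating fibres, of which 5 rose, summed to 100.1, 449.9 and 511.7 CPM in D2 CMD libraries 22, 23 and 24, against 64.7 to 82.4 CPM in D2 WT libraries. The 5 Schwann cell markers, of which 2 rose, summed to 54.7, 294 and 182 CPM in the same CMD libraries, against 43.1 to 60.5 CPM in WT. Library 22 had the highest Nmnat1 and Nmnat3 of the D2 CMD libraries and the lowest of both these sums. The 6 adipocyte markers, of which 1 rose, summed to 3985 to 7698 CPM in D2 CMD and 752 to 1949 CPM in D2 WT. The 8 lymphocyte markers, of which 5 were tested and 1 rose, summed to 75.0 and 58.1 CPM in libraries 22 and 24, with 1.47 CPM in library 23 and 0.676 to 1.21 CPM in D2 WT. Regenerating fibre markers averaged 207 CPM in CMD and 33.2 CPM in WT of 67. They averaged 102 and 33.5 CPM in B6, and 110 and 31.9 CPM in 87, in the same order. Adipocyte markers averaged 3897 CPM in CMD and 1009 CPM in WT of 67. The 6 endothelial markers summed to 203 to 238 CPM in D2 CMD and 230 to 296 CPM in D2 WT. The part of these markers in the D2 results was not tested.

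In B6, Nmnat1 had 21, 23 and 21.9 CPM in CMD libraries, against 17.7, 20.1 and 18.2 CPM in WT libraries. All CMD libraries lay above all WT libraries, yet the log2 fold change of 0.24 ± 0.13 was not called (adjusted p = 0.198). In 67, Nmnat1 had 17.5, 18.5 and 18.4 CPM in CMD libraries, against 19.8, 23.2 and 24.6 CPM in WT libraries, with no overlap and a log2 fold change of -0.31 ± 0.13 (adjusted p = 0.0833). In 67 the groups of 6 genes did not overlap, beside 44.1% of all genes, with Naprt and Nnmt above and Nmrk1, Nmnat1, Nmnat3 and Parp1 below in CMD. In 87, Nmnat1 had 23.2, 23.2 and 21 CPM in CMD libraries, against 17, 22.7 and 20.7 CPM in WT libraries. These overlap, and the log2 fold change was 0.16 ± 0.13 (adjusted p = 0.409).

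The CMD effect on Nmnat1 differed among the strains (F test, adjusted p = 0.00401), and it was the only one of the 10 genes called by that test, against 4.67% of all genes. The effect in D2 was lower than that in B6 by 1.13 ± 0.18 on the log2 scale (adjusted p = 0.00309), and lower than that in 87 by 1.05 ± 0.18 (adjusted p = 0.0014). Of all genes tested 3.62% were called in the pair D2 and B6 (2.5% lower in D2) and 7.9% in the pair D2 and 87 (4.88% lower in D2). Against 67 the difference was -0.58 ± 0.18 (adjusted p = 0.11), where 1.28% of all genes were called. Without the 4 D2 libraries with contradicted sex labels the F test gave an adjusted p of 0.0575. WT groups differed too (adjusted p = 0.0481), with D2 WT above B6 WT by 0.50 (adjusted p = 0.0169), but the F test for WT groups was no longer called in 21 of 33 alternatives. Among CMD groups Nmnat1 differed (adjusted p = 0.00276), and D2 CMD was below B6 CMD by a log2 fold change of -0.62 (adjusted p = 0.00192). On the TMM scale D2 thus held both the highest and the lowest group mean of Nmnat1, 26.4 CPM in WT and 14.3 CPM in CMD, and neither range overlapped its neighbour's. In the deposited TPM, which carry no TMM factor, the 2 CMD groups lay closer. Nmnat1 averaged 11.9 ± 0.70 TPM in D2 CMD and 13.2 ± 0.93 TPM in B6 CMD (SD, n = 3 each).

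Nmnat3 in D2 had 12.8, 9.96 and 7.50 CPM in CMD libraries, against 14.6, 14.6 and 12.9 CPM in WT libraries. The highest CMD library lay just below the lowest WT library, and Nmnat3 fell by 0.48 ± 0.15 on the log2 scale (adjusted p = 0.0353). This call was lost in 9 of 34 alternatives, among them sex from Y-linked reads (adjusted p = 0.0675), leaving out libraries 16 and 23 (adjusted p = 0.068) and plain library sizes (-0.21, adjusted p = 0.308). Nmnat3 averaged 15.4 ± 1.51 CPM in CMD and 15 ± 2.18 CPM in WT of B6, 12.8 ± 0.51 CPM in CMD and 14.7 ± 0.77 CPM in WT of 67, and 15.5 ± 0.90 CPM in CMD and 15.6 ± 1.49 CPM in WT of 87 (SD, n = 3 each). None of these 3 differences was called. Among CMD groups Nmnat3 differed (adjusted p = 0.0148), with D2 CMD below B6 CMD by a log2 fold change of -0.61 (adjusted p = 0.0085). On plain library sizes these 2 results gave adjusted p values of 0.162 and 0.0527.

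The salvage enzyme Nampt, which is rate limiting in the route from nicotinamide, was higher in CMD muscle of 87. There it had 253, 149 and 159 CPM in CMD libraries, against 113, 106 and 110 CPM in WT libraries. All CMD libraries lay above all WT libraries, library 16 by the widest margin, and the log2 fold change was 0.77 ± 0.18 (adjusted p = 0.00464). Without library 16 it was 0.49 (adjusted p = 0.0315), and with only the 6 libraries of 87 in the fit the adjusted p was 0.122. Nampt and Parp1 were the 2 genes whose groups did not overlap in 87, where 30.6% of all genes did not. Library 16 also held the highest neutrophil marker sum of 87, 8.05 CPM over 6 genes. The other 87 CMD libraries held 1.52 and 1.81 CPM, and the 87 WT libraries 0.432 to 1.52 CPM. In D2 CMD libraries 22, 23 and 24 this sum was 15.972, 3.73 and 9.71 CPM. Nampt in these D2 CMD libraries was 116, 82.5 and 83.2 CPM, in the same order. No library of any group held more than 0.0262 CPM of the neutrophil marker Ly6g. Library 16 was also low in the 8 fibroblast markers, which summed to 188 CPM there, to 563 and 848 CPM in the other 87 CMD libraries and to 771 to 1055 CPM in 87 WT libraries. The part of these markers in the Nampt level was not tested.

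In B6, Nampt had 152, 129 and 149 CPM in CMD libraries, against 120, 98.1 and 138 CPM in WT libraries, which overlap (log2 fold change 0.27 ± 0.17, adjusted p = 0.291). In 67 it averaged 138 ± 15.8 CPM in CMD and 131 ± 4.29 CPM in WT (log2 fold change 0.08 ± 0.17). In D2 it had 116, 82.5 and 83.2 CPM in CMD libraries, against 112, 114 and 115 CPM in WT libraries, with library 22 of CMD above all 3 WT libraries and the other CMD libraries below them (log2 fold change -0.27 ± 0.17, adjusted p = 0.268). Averaged over strains the log2 fold change was 0.21 ± 0.09 (adjusted p = 0.0513), and on plain library sizes it was 0.36 (adjusted p = 0.000583). The F test of the CMD effect among strains gave an adjusted p of 0.0642 and was not passed, although in the pair D2 and 87 the effect in D2 was called lower by 1.05 ± 0.25 (adjusted p = 0.0138). Among CMD groups Nampt differed (adjusted p = 0.00335), and D2 CMD was below B6 CMD by a log2 fold change of -0.61 (adjusted p = 0.0178). In the deposited TPM, which carry no TMM factor, these groups lay closer. Nampt averaged 48.0 ± 3.37 TPM in D2 CMD and 52.9 ± 4.56 TPM in B6 CMD (SD, n = 3 each).

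Nmrk2, the muscle riboside kinase, varied widely between libraries of a group and was called in no strain. In 67 WT it had 323 CPM in library 7, against 48.4 and 76.6 CPM in libraries 8 and 9. The 67 CMD libraries had 134, 50.7 and 97.5 CPM, so the log2 fold change was -0.66 ± 0.52 (adjusted p = 0.385), and it was 0.58 without library 7. In B6 Nmrk2 had 108, 73.9 and 61.2 CPM in CMD libraries, against 46.4, 23.4 and 49.3 CPM in WT libraries. All CMD libraries lay above all WT libraries, but the log2 fold change of 1.03 ± 0.52 was not called (adjusted p = 0.175). In 87 it had 173, 90.6 and 208 CPM in CMD libraries, against 61.7, 64.9 and 91.5 CPM in WT libraries, and the ranges meet at 1 library of each (log2 fold change 1.11 ± 0.52, adjusted p = 0.139). In D2 it had 143, 139 and 175 CPM in CMD libraries, against 131, 209 and 106 CPM in WT libraries (log2 fold change 0.04 ± 0.52). All D2 CMD libraries lay within the range of the D2 WT libraries. Averaged over strains the log2 fold change was 0.38 ± 0.26 (adjusted p = 0.235), and it was 0.69 without library 7 (adjusted p = 0.0071). Library 7 was the only male among the libraries of strain 67, by label and by reads. In the other strains, the WT libraries that were male by both were library 1 of B6 (46.4 CPM) and library 13 of 87 (61.7 CPM). The part of sex in the Nmrk2 level was not tested.

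Nmrk1, the other riboside kinase, was called in no strain for the CMD effect and differed between strains at either genotype. In D2 it had 2.26, 1.98 and 1.55 CPM in CMD libraries and 2.76, 2.51 and 1.83 CPM in WT libraries. In B6 it had 4.93, 4.07 and 3.95 CPM in CMD libraries and 5.10, 4.60 and 4.23 CPM in WT libraries. No D2 library reached a B6 library. D2 CMD was below B6 CMD by a log2 fold change of -1.16 (adjusted p = 0.00498) and D2 WT below B6 WT by -0.97 (adjusted p = 0.0317), the second of which was no longer called in 6 of 33 alternatives. The F tests gave adjusted p values of 0.0155 among CMD groups and 0.0225 among WT groups. In 67 Nmrk1 had 4.35, 3.56 and 3.68 CPM in CMD libraries and 5.20, 4.54 and 4.90 CPM in WT libraries, near the B6 levels. In 87 it had 1.78, 4.91 and 3.86 CPM in CMD libraries and 2.81, 3.19 and 2.12 CPM in WT libraries, with library 16 the lowest.

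In all, 5 of the 10 genes (Nmrk1, Nampt, Nmnat1, Nmnat3 and Cd38) differed among the CMD groups of the 4 strains, against 28.3% of all genes, and 2 of 10 (Nmrk1 and Nmnat1) among the WT groups, against 8.66%. Each of the 5 was lower in D2 CMD than in B6 CMD, a comparison in which 21.3% of all genes were called (10.4% lower). In D2 WT against B6 WT, 7.38% of all genes were called (2.82% higher and 4.56% lower), as were 3 of the 10. These were Nmrk1, lower, and Nmnat1 and Nmrk2, higher. The Nmrk2 log2 fold change was 1.90 ± 0.53 (adjusted p = 0.0331), but the F test among WT groups was not passed for Nmrk2 (adjusted p = 0.0582). With the 4 D2 libraries of contradicted sex label left out, the counts of members were 1 among CMD groups and 0 among WT groups (3 at an unadjusted p below 0.05 in edgeR).

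In the nicotinic acid route, Naprt was higher in CMD muscle of B6. It had 4.41, 7.71 and 5.68 CPM in B6 CMD libraries, against 2.92, 2.93 and 4.77 CPM in B6 WT libraries. Library 3 of WT lay above library 4 of CMD, so the ranges overlap, and the log2 fold change of 0.74 ± 0.25 was called narrowly (adjusted p = 0.0465). The call was lost in 17 of 34 alternatives. In 67 Naprt had 5.29, 5.44 and 5.16 CPM in CMD libraries, against 3.60, 3.09 and 3.73 CPM in WT libraries. The groups did not overlap, and the log2 fold change was 0.61 ± 0.25 (adjusted p = 0.0917). In 87 it averaged 5.26 ± 0.69 CPM in CMD and 3.62 ± 1.22 CPM in WT (log2 fold change 0.54 ± 0.25, adjusted p = 0.135). In D2 it averaged 4.95 ± 1.14 CPM in CMD and 5.38 ± 0.39 CPM in WT (log2 fold change -0.12 ± 0.25). Averaged over strains Naprt was higher in CMD by 0.44 ± 0.13 on the log2 scale (adjusted p = 0.00654).

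Nadsyn1, which completes that route, stayed between 1.88 and 3.21 CPM in all 24 libraries. Its log2 fold changes were 0.23 ± 0.22 in B6, -0.10 ± 0.22 in 67, -0.09 ± 0.22 in 87 and -0.13 ± 0.22 in D2, none of them called.

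Nnmt, which removes nicotinamide by methylation, was among the least even of the 10. In D2 it had 4.06, 9.41 and 0.488 CPM in CMD libraries, against 2.07, 0.7 and 0.395 CPM in WT libraries, so library 24 of CMD lay among the WT libraries (log2 fold change 2.14 ± 0.95, adjusted p = 0.114). In 87 it had 0.918, 1.04 and 5.72 CPM in CMD libraries, against 11.5, 0.729 and 2.25 CPM in WT libraries, with library 13 of WT the highest of all 24. In B6 it had 3.37, 5.19 and 5.04 CPM in CMD libraries, against 4.60, 1.11 and 2.59 CPM in WT libraries. In 67 it had 4.78, 3.54 and 4.05 CPM in CMD libraries, against 3.01, 2.31 and 1.93 CPM in WT libraries, with no overlap and a log2 fold change of 0.77 ± 0.91. Averaged over strains the log2 fold change was 0.68 ± 0.46 (adjusted p = 0.226). Fat cells are known to express Nnmt. The adipocyte marker sum over 6 genes is set beside Nnmt here for D2 CMD and 87. In D2 CMD, library 23 held the highest of both, 7698 CPM of adipocyte markers, but library 24 held more of these markers than library 22 (5103 CPM beside 3985 CPM) and less Nnmt. In 87, the CMD libraries 16, 17 and 18 held 2045, 2587 and 3747 CPM of adipocyte markers, against 1868 CPM in WT library 13, whose Nnmt was higher than theirs. The 8 fibroblast markers summed to 1055 CPM in WT library 13 and 848 CPM in CMD library 18. Each was the highest of its 87 group, as was its Nnmt. In D2 CMD libraries 22, 23 and 24 these markers summed to 1505, 1359 and 2182 CPM, with Nnmt highest in library 23. The part of fat or fibroblasts in these values was not tested. Over the 8 group means the patterns most like that of Nnmt were those of Casp9 (r = 0.986), Ifi211 (0.956), Entpd2 (0.950), Ccr2 (0.950) and Ppic (0.918).

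Beyond these 10 genes, 47 of 54 further genes of NAD synthesis, transport, phosphorylation and use were tested. In B6, 7 of 47 were called against 18.4% of all genes, 4 higher and 3 lower in CMD. In 67, 8 of 47 were called (5 higher and 3 lower) against 21.7%, in 87, 6 (4 and 2) against 20.8%, and in D2, 8 (2 and 6) against 20.2%, so these shares were near or below those of all genes. Their median log2 fold changes were -0.01, 0.05, 0.08 and -0.10 in the same order. On plain library sizes, where the median of all genes shifts by 0.13 in B6, 0.26 in 67, -0.02 in 87 and 0.27 in D2, the counts higher and lower were 4 and 2 in B6, 9 and 0 in 67, 4 and 3 in 87, and 8 and 2 in D2. Averaged over strains 22 of 47 were called against 48.8% of all genes, 11 higher and 11 lower (13 and 5 on plain library sizes). All changes of single genes here are relative to the TMM scale.

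The mitochondrial deacylases Sirt3 and Sirt5, which use NAD, fell in D2, whereas Sirt3 rose in the other 3 strains and Sirt5 in B6 and 87. Sirt3 had 16.9, 17.6 and 20.3 CPM in B6 CMD libraries, against 10.1, 12.2 and 14.7 CPM in B6 WT libraries. It rose there by a log2 fold change of 0.57 ± 0.17 (adjusted p = 0.0297), in 67 by 0.60 ± 0.17 (adjusted p = 0.0197) and in 87 by 0.89 ± 0.18 (adjusted p = 0.00178). In D2 it had 13.3, 11.6 and 10.5 CPM in CMD libraries, against 17.9, 16.9 and 19.9 CPM in WT libraries, and fell by 0.63 ± 0.17 (adjusted p = 0.0162). On plain library sizes the D2 value was -0.37 (adjusted p = 0.156). The ranges of D2 WT and B6 CMD libraries overlap.

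Sirt5 had 7.03, 7.20 and 5.99 CPM in D2 CMD libraries, against 10.4, 9.19 and 11.7 CPM in D2 WT libraries, and fell by 0.63 ± 0.17 (adjusted p = 0.0136). It rose by 0.62 ± 0.17 in B6 (adjusted p = 0.0167) and by 0.81 ± 0.17 in 87 (adjusted p = 0.00261), and its log2 fold change in 67 was 0.47 ± 0.17 (adjusted p = 0.0536). On plain library sizes the D2 value was -0.36 (adjusted p = 0.169). The CMD effect differed among strains for both (adjusted p = 0.00441 for Sirt3 and 0.0045 for Sirt5), but not without the 4 D2 libraries of contradicted sex label (adjusted p = 0.222 and 0.326 in the same order). Art5, an ADP-ribosyltransferase, rose by 0.71 ± 0.23 in 67 (adjusted p = 0.0311) and fell by 0.92 ± 0.23 in D2 (adjusted p = 0.00957), and its effect also differed among strains (adjusted p = 0.0219), though not with sex from Y-linked reads as a term (adjusted p = 0.0547). These 3 of 47 were the ones called in the test among strains, a share near the 4.67% of all genes called in it.

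**Figure D4:**
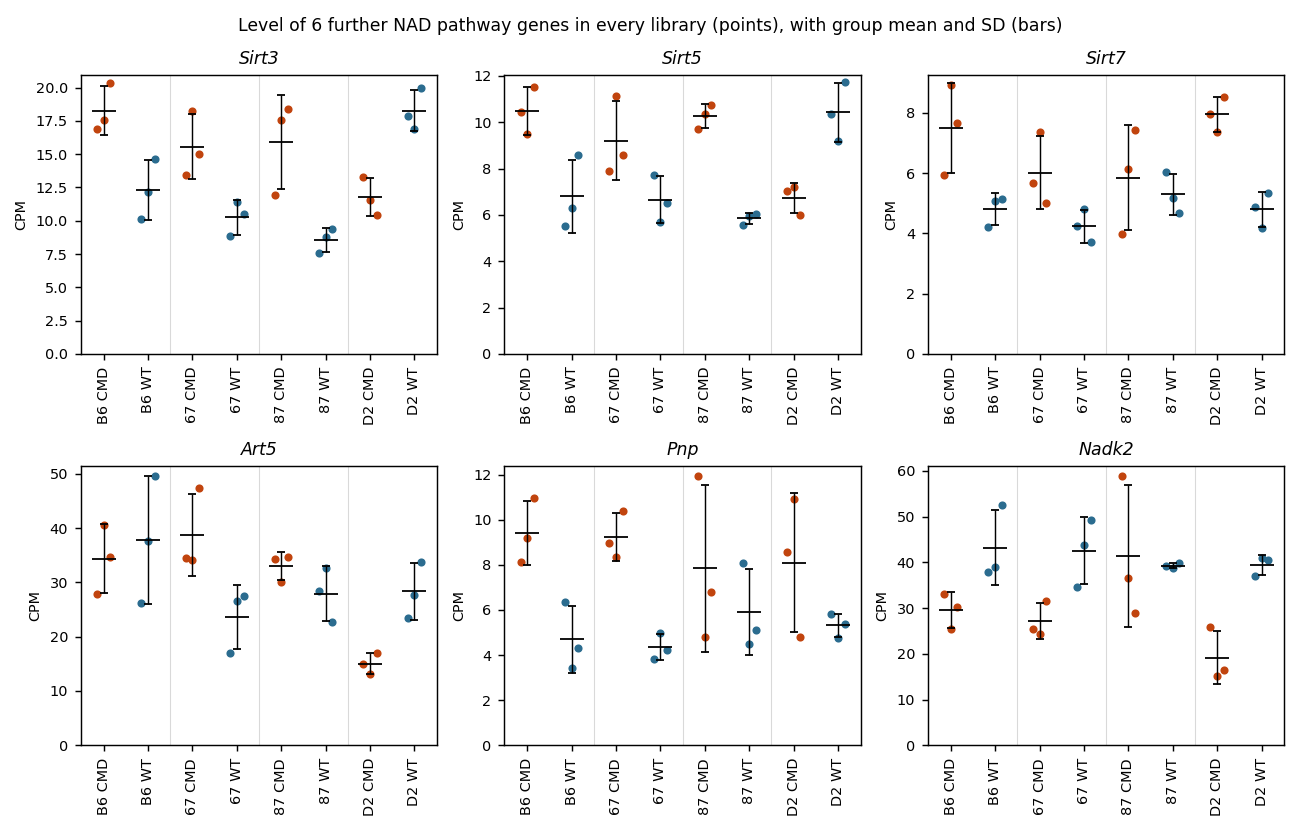
CPM of 6 further NAD pathway genes in every library (points) with the group mean and SD (bars), CMD left of WT within B6, 67, 87 and D2. Sirt3 and Sirt5 points of CMD lie above WT in B6, 67 and 87 and below WT in D2.

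Of the other named genes, Pnp, a purine nucleoside phosphorylase that also splits nicotinamide riboside, rose by 1.004 ± 0.32 in B6 (adjusted p = 0.0343) and 1.08 ± 0.32 in 67 (adjusted p = 0.0207). The nucleoside transporter gene Slc29a1 rose by 0.33 ± 0.11 in 67 (adjusted p = 0.0447) and 0.50 ± 0.11 in 87 (adjusted p = 0.00418). Nadk2, the mitochondrial NAD kinase, fell by 0.65 ± 0.23 in 67 (adjusted p = 0.0458) and by 1.04 ± 0.23 in D2 (adjusted p = 0.0044). The nuclear sirtuin Sirt7 rose by 0.64 ± 0.21 in B6 (adjusted p = 0.0412) and 0.73 ± 0.21 in D2 (adjusted p = 0.0208). Parp6 fell by 0.51 ± 0.11 in B6 (adjusted p = 0.00599) and by 0.36 ± 0.11 in 67 (adjusted p = 0.0307), and Art3 fell by 0.75 ± 0.20 in B6 (adjusted p = 0.0144) and by 0.56 ± 0.20 in 87 (adjusted p = 0.0498). On plain library sizes the 67 values of Nadk2 (-0.39, adjusted p = 0.136) and Parp6 (-0.10, adjusted p = 0.428) were not called. Averaged over strains, the tankyrase gene Tnks2 fell by 0.57 ± 0.11 (adjusted p = 0.000465) and Tiparp by 0.55 ± 0.18 (adjusted p = 0.0169). In the same average Bst1, a relative of Cd38, rose by 1.19 ± 0.29 (adjusted p = 0.00225) with group means of at most 0.548 CPM. Within strains Bst1 was called in 67 only (adjusted p = 0.0173). Ido1, which starts synthesis from tryptophan, rose in the average by 1.46 ± 0.46 (adjusted p = 0.0125) with group means of at most 0.392 CPM. Ido1 was called in no strain. WT libraries held 1 to 6 reads of it, and D2 CMD libraries 22, 23 and 24 held 8, 9 and 51. Only CMD libraries brought Ido1 past the filter on low counts, so its rise is not independent of that filter.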

How the data were processed

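Per the labels, total RNA of left quadriceps was extracted with TRIzol and sequenced as stranded mRNA libraries with paired reads, and the submitters' processing notes name GRCm39 (mm39). The sources used here do not give the aligner, the counting program or whether counting used strand. The deposited files hold raw counts of total and unique exon reads per gene, and RPKM and TPM made by the authors. Total exon reads were analysed. The deposited TPM served to compare levels between genes and, where stated, to set groups beside each other without TMM factors. No test used them, and the deposited RPKM were not used.

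The filterByExpr function with groups, a smallest count of 10 and a smallest total of 15 kept 14789 genes. The model was edgeR 4.0.16 on R 4.3.3 with limma 3.58.1, using TMM factors, glmQLFit and 1 term for each of 8 groups, without a sex term, since the sex labels of 4 D2 libraries go against Y-linked reads. P-values from glmQLFTest were adjusted by Benjamini-Hochberg over all genes, with a threshold of 0.05. They weigh each difference against a spread between libraries that was estimated over all 8 groups together, and 3 libraries per group limit the precision. The fit was tested on simulated data. Alternatives were both codings of sex, RLE factors, no filter, DESeq2 1.42.0, unique reads, the libraries of 1 strain, and libraries left out. Plain library sizes were added after seeing the data. All 10 genes are named. Of the further pathway genes, those called in 2 or more strains, or in the averaged contrast with an absolute log2 fold change of at least 0.5, are named. The genes, lists and tests were chosen with earlier results of these data known. Upstream sequences are from RefSeq (GRCm38.p6).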

Additional observations from a re-analysis of the deposited data

Results flagged for a closer look

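The CMD effect differed among the 4 strains, in edgeR's quasi-likelihood F test of strain by genotype with Benjamini-Hochberg adjustment, for 1 of the 10 NAD genes and for 3 of the 47 further pathway genes tested, beside 4.67% of all genes. Nmnat1 had an adjusted p of 0.00401, with a log2 fold change of -0.89 in D2 and 0.24 in B6. Sirt3 had an adjusted p of 0.00441, with -0.63 in D2 and 0.57 in B6. Sirt5 had an adjusted p of 0.0045, with -0.63 in D2 and 0.62 in B6. Art5 had an adjusted p of 0.0219, with -0.92 in D2 and 0.71 in 67. Without the 4 D2 libraries of contradicted sex label, which leaves 1 library per D2 group, the adjusted p was 0.0575 for Nmnat1, 0.222 for Sirt3, 0.326 for Sirt5 and 0.201 for Art5. By Y-linked reads 1 of 3 D2 CMD and 3 of 3 D2 WT mice were female. With sex from these reads as a term the adjusted p was 0.00424 for Nmnat1, 0.0068 for Sirt3, 0.00679 for Sirt5 and 0.0547 for Art5.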

How the results depend on the processing

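Of 1003 values of the 10 genes under alternatives other than leaving out 1 library, 952 stayed on the same side of the threshold. Another 31 lost a call, 20 gained one and 0 called values changed sign. Of 2568 values with 1 library left out, 2495 stayed on the same side. Another 48 lost a call, 25 gained one and 0 called values changed sign. Sign changes of values called in neither fit were not counted, and F tests have no sign. The counts of the 10 genes called moved in both directions. In B6 the count of 2 became 3 on plain library sizes, 1 with no filter on low counts, 1 with only the 6 libraries of B6, 1 without the 4 D2 libraries of contradicted sex label, and 1 to 2 with 1 library left out. In 67 the count of 1 became 2 with sex as labelled, 2 with sex from Y-linked reads, 3 with only the 6 libraries of 67 and 2 on plain library sizes. In 87 the count of 2 became 3 without libraries 16 and 23, 2 to 3 with 1 library left out, and 0 with only the 6 libraries of 87 (edgeR, 3 at an unadjusted p below 0.05). In D2 the count of 2 became 3 with sex as labelled, 1 with only the 6 libraries of D2, 1 without libraries 16 and 23, 1 without the 4 D2 libraries, 1 on plain library sizes, and 1 to 3 with 1 library left out. For the difference of the CMD effect among strains the count of 1 became 2 with sex as labelled, 2 in DESeq2, 0 without the 4 D2 libraries (edgeR, 2 at an unadjusted p below 0.05), and 1 to 2 with 1 library left out. Among WT groups the count of 2 became 3 in DESeq2, 1 with RLE factors, 1 with no filter, 1 on plain library sizes, 0 without the 4 D2 libraries (edgeR, 3 at an unadjusted p below 0.05), and 0 to 3 with 1 library left out, 0 being without library 21 (3 at an unadjusted p below 0.05). Among CMD groups the count of 5 became 1 without the 4 D2 libraries and 4 to 6 with 1 library left out. The averaged count of 3 became 4 with RLE factors, 4 in DESeq2, 4 with unique reads, and 3 to 4 with 1 library left out. Under the alternatives not listed the counts in these comparisons were those reported, but equal counts need not be the same genes. On plain library sizes the count among CMD groups stayed at 5 although Nmnat3 was not called. The averaged count stayed at 3 there, with 2 higher and 1 lower in place of 1 higher and 2 lower. The cause of these changes was not tested. Leaving out the 4 D2 libraries leaves 1 per D2 group, library 20 of WT and library 23 of CMD. The 2 D2 groups are then assumed to vary like the other groups.

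Over all genes, the call counts moved by more than 1.5 times in these cases. In B6, 2724 became 1139, 1681, 1146 and 1791 without libraries 2, 3, 5 and 6. In 67, 3210 became 1921 without library 9. In 87, 3083 became 355 with only its 6 libraries and 1832 without library 15. In D2, 2986 became 807 without the 4 D2 libraries, and 1511, 1878, 1854 and 1697 without libraries 20, 21, 23 and 24. For the difference of the CMD effect among strains 690 became 1555 with sex as labelled, 1732 in DESeq2, 37 without the 4 D2 libraries, and 1168, 356 and 417 without libraries 18, 21 and 24. Among WT groups 1281 became 2214 in DESeq2, 2014 without libraries 16 and 23, 99 without the 4 D2 libraries, and 1963, 603 and 562 without libraries 16, 19 and 21. Among CMD groups 4184 became 948 without the 4 D2 libraries and 2388 without library 24.

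On plain library sizes the share of calls that were higher in CMD was 63.1% in B6, 83.9% in 67, 51.9% in 87 and 88.6% in D2, against 43.8%, 52.6%, 55% and 55.3% with TMM factors, so directions hold relative to the TMM scale. No paired analysis was possible because the library numbers 1 to 24 are not shared between groups. Nnmt, with as few as 19 reads in a library, is the least precisely counted of the 10 genes.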
